A study of Saccharomyces cerevisiae with 268 samples.

Results

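SAGA is a large coactivator complex of budding yeast, Saccharomyces cerevisiae, and the columns described here came from strains that lack SPT3 (YDR392W), SPT20 (YOL148C) or HFI1 (YPL254W), 3 subunits of it that are not part of its acetyltransferase module. They were chosen by the deleted gene in the title and are 3 columns, 1.12% of those in the table. The study deleted 1 regulator per strain and, per the labels, compared total RNA of the deletion strain (Cy5) with that of wild type (Cy3), both in mid-log growth, on arrays with 2 channels, with the aim of a better map of regulators and their target genes. There was 1 column per deletion and no replicate. The columns of ADA2 (YDR448W) and NGG1 (YDR176W), 2 subunits of the acetyltransferase module, are shown apart, and the comparison group was all other deletions, 98.1% of the columns. The labels used here leave strain background, mating type and medium unstated.

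SAGA binds activators, delivers TATA-binding protein to promoters and acetylates histones. SPT20 and HFI1 (also called ADA1) hold the complex together, SPT3 contacts TATA-binding protein, and ADA2 and NGG1 (also called ADA3) work with the acetyltransferase GCN5. Several SPT genes were found as mutations that undo the effect of a Ty transposon inserted in a promoter, and SPT3 is known for its role in transcription of Ty1. SWI/SNF, which comes up below, is a complex that remodels nucleosomes.

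A value is a score of the deletion strain over wild type, and the labels and the table do not say on what scale, with what log base or after what normalization, so differences are in score units and are not fold changes. Of 6419 features, 5615 named genes were tested. The 3 columns held 1830 (SPT3), 2205 (SPT20) and 2221 (HFI1) tested genes beyond 1 in size, against a median of 1214 in the others, and 898 and 1246 in ADA2 and NGG1. The SD over tested genes was 1.14, 1.65 and 1.60, against a median of 0.827 in the others. The deleted gene was low in its own column only for HFI1, at -1.20, where 1.9% of the others lay below it. SPT3 stood at 1.47 in its own column and SPT20 at 0.31, with 95.7% and 85.6% of the others below, and ADA2 and NGG1 stood at -0.43 and 1.04. Where the probes lie is unstated, and a probe that misses the deleted stretch is no check. The names SPT3, SPT20, ADA2 and NGG1 thus rest on the labels. Genes of alpha cells were low in the SPT3 column, with STE3 at -7.17, MF(ALPHA)2 at -3.70, SAG1 at -3.67 and MF(ALPHA)1 at -2.87, while the same genes lay between -0.04 and 1.11 in SPT20 and HFI1. In the column labelled SPT20 the genes of chromosome I lay 0.97 below the rest of that column. The part of these features in the results below was not tested beyond the counts without those columns or that chromosome.

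Set against all other deletions, 1115 of 5615 genes (19.9%) passed at an adjusted p under 0.05 in limma, 402 higher (7.16%) and 713 lower (12.7%). Under quantile normalization between columns 240 passed, 170 higher and 70 lower, so the excess of lower genes turned around, while scaling each column by its spread left 458, of which 303 were lower. The p-value rests on the spread between columns, which is pooled mostly from the other deletions, so the spread among the 3 strains hardly enters. In 1053 of the 1115 genes the 3 columns lay on 1 side of the others' median. Leaving out 1 column at a time left 49 higher genes (0.873%) that passed every time, and 3.62% of all genes lower. Without SPT20 the count was 418, without HFI1 577, and without SPT3 1033. As a description that needs no model, 4.22% of genes lay below the 5th percentile of the others in each of the 3 columns and 43 (0.766%) above the 95th percentile in each. These are called low or high in all 3. Of the genes low in all 3, 65 were reading frames of Ty transposons. In RNA from whole cultures, fewer cells that express a gene and less RNA per cell cannot be told apart.

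Ty transposons were the lowest large class. Of 76 Ty reading frames tested, 72 fell and none rose, and 65 were low in all 3. The list's median score was -5.28 in SPT3, -7.34 in SPT20 and -6.52 in HFI1, against -0.84 for the median of the others and a 5th to 95th percentile from -3.50 to 1.16. It was -1.69 in ADA2 and 0.15 in NGG1, inside that range. The median difference of the list was -5.38, against -0.08 over all genes, and 65 of the 72 also passed without any 1 of the 3 columns. Under quantile normalization 20 passed. Copies of Ty1 and Ty2 are nearly identical in sequence, so these features share signal and are not independent.

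YJR026W, a Ty1 reading frame, had the largest fall among them, with -6.05 in SPT3, -7.76 in SPT20 and -7.07 in HFI1. ADA2 stood at -1.57 and NGG1 at 0.55, and the others had a median of -0.62. All 3 core columns lay far below the ADA2 and NGG1 columns and below the others' 5th percentile of -3.69. The difference was -6.29 ± 1.10 (SE), with an adjusted p of 3.42e-06 (limma).

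The table also held features named after whole elements and their parts, and these separated the transposon families. All 12 features named Ty1 fell and were low in all 3, with differences from -5.83 to -4.10. Both features of Ty2 fell, with -4.21 and -3.87 in SPT3, -5.69 and -5.97 in SPT20 and -4.68 and -4.54 in HFI1. None of the 4 features of Ty3 passed, and their medians were -0.93, -0.93 and -1.28 in the 3 columns against -0.72 in the others. Of 5 features of Ty4, 1 rose and none fell, and of 2 features of Ty5, 1 rose and none fell. Ty3 is a family of another class of retrotransposon than Ty1, and Ty4 and Ty5 are kept in few copies. Among 19 features named for delta repeats, the long terminal repeats of Ty1 and Ty2, 11 fell. In the fit over 6372 features, 1261 passed (19.8%) and 813 fell (12.8%). In that fit 72 of 77 Ty reading frames fell. With the 12 Ty1 and 2 Ty2 features these made 86 transposon features that fell, delta repeats not counted. Among 303 intergenic features, 11 (3.63%) were low in all 3. Of these, 7 are named for a delta repeat and are among the delta features just counted, and iYAR009C, at -5.38, -7.12 and -6.24, had scores like those of the Ty1 features.

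The low Ty score was shared with other deletions. Ranked by the Ty median from the lowest of all columns, SPT20 was 4th, HFI1 9th and SPT3 13th. SWI3, SNF6 and SNF2, all of SWI/SNF, stood lowest at -7.65, -7.60 and -7.36, and SNF5 (-7.28), SIR2 (-7.12), TUP1 (-6.99) and SDS3 (-6.55) lay between SPT20 and HFI1. ADA2 was 51st, and NGG1 lay above the others' median. The highest median was that of SPT10, at 4.58.

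**Figure D1:**
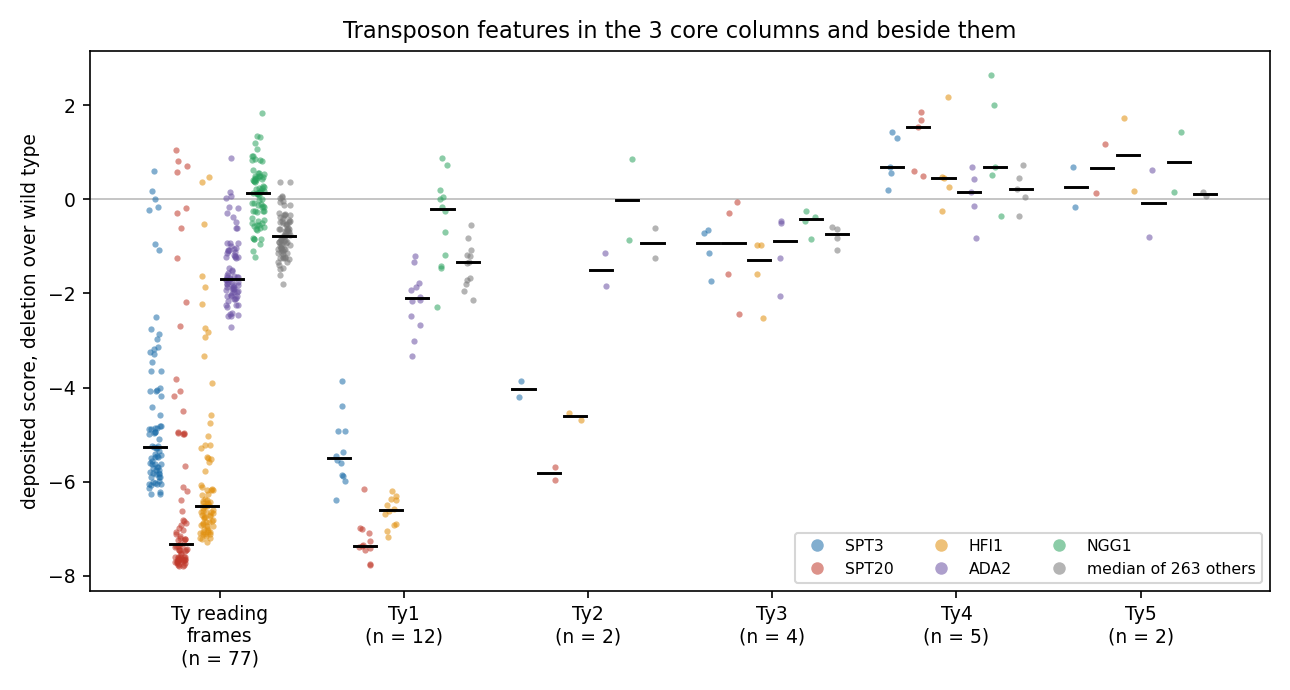
Deposited score (vertical axis) of each Ty reading frame and of features named Ty1 to Ty5, for the SPT3, SPT20, HFI1, ADA2 and NGG1 columns and the median of the other deletions. Each point is 1 feature and each black line a median. The 3 core columns lie far below the rest for the reading frames, Ty1 and Ty2, with medians of -5.26, -7.32 and -6.52 over the 77 reading frames, and among the rest for Ty3, Ty4 and Ty5.

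Genes of the phosphate response fell together in the 3 core columns. This set holds secreted acid phosphatases, phosphate transporters and the VTC proteins that make polyphosphate, and it is switched on when phosphate is scarce. Of 17 tested, 14 fell and none rose, where 12.7% of all genes were lower. Without any 1 column 10 of the 14 also passed, and under quantile normalization 7. The list's median was -2.13 in SPT3, -4.59 in SPT20 and -4.34 in HFI1, against 0.27 for the others' median and -1.89 for their 5th percentile. ADA2 and NGG1 stood at 0.30 and 0.65. In PHO5, PHO3 and most other members SPT3 had the highest score of the 3 columns.

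PHO5, the main secreted acid phosphatase, stood at -3.96 in SPT3, -7.40 in SPT20 and -6.06 in HFI1. It stood at 2.37 in ADA2 and 2.10 in NGG1, against 0.92 for the others' median. The core columns and the ADA2 and NGG1 columns thus lay on opposite sides of the others' median, but PHO5 did not pass in ADA2 and NGG1 against the others. Core minus others was -6.41 ± 1.03 (adjusted p = 4.23e-07), and SPT20 had the lowest PHO5 of all columns. PHO3, the neighbouring constitutive acid phosphatase, stood at -3.69, -7.35 and -7.55 in the same order, with a difference of -6.18 ± 0.921 (adjusted p = 4.85e-08). It was lowest in HFI1 and next lowest in SPT20.

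Of the other acid phosphatases, PHO12 stood at -3.67, -7.72 and -7.65 and PHO11 at -2.91, -7.21 and -6.75. PHO11 and PHO12 are near-identical copies, so their signals cannot be told apart, and PHO11 lies on chromosome I, which was low in the SPT20 column. The sodium-coupled phosphate transporter gene PHO89 stood at -3.39, -6.86 and -6.34, and the high-affinity transporter gene PHO84 at -2.19, -6.28 and -6.31. VTC3 stood at -2.57, -4.95 and -5.50, and SPL2, which lowers low-affinity phosphate uptake, at -2.13, -2.22 and -3.06. All 6 passed. PHO8, GDE1 and PHO81 did not pass. PHO8, the vacuolar phosphatase, had a difference of -1.69 (adjusted p = 0.059), and PHO81, which inhibits the kinase of the pathway, one of -0.42 (adjusted p = 0.334).

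YHB1, a flavohaemoglobin that breaks down nitric oxide, fell as far as the acid phosphatases. Its score was -5.01 in SPT3, -7.39 in SPT20 and -7.17 in HFI1, against 1.12 in ADA2, 0.94 in NGG1 and 0.02 for the others' median. The difference was -6.21 ± 1.08 (adjusted p = 3.32e-06), and SPT20 (-7.39) was the lowest of all columns, next to SNF5 at -7.38.

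SER3, the first enzyme of serine synthesis, was the gene with the largest rise. It is known to be held down in rich medium by transcription of a noncoding RNA, SRG1, across its promoter. SER3 stood at 7.22 in SPT3, 6.21 in SPT20 and 7.05 in HFI1, against 0.66 in ADA2, 0.03 in NGG1 and -0.15 for the others' median. The 3 core columns lay close together and far above the others' 95th percentile of 2.31. The difference was 6.70 ± 0.732 (adjusted p = 8.03e-14), and it stayed past the threshold under quantile normalization (4.54), with scaled columns (6.41) and without each core column in turn (6.5 to 7.0). The columns ranked 2nd, 6th and 3rd for SER3. CHA4, an activator of serine breakdown, was 1st at 7.56, and SPT2 (6.70), SPT4 (6.49), SNF2 (6.03), SWI3 (5.83) and SNF5 (5.44) were near, so other deletions had SER3 as high. The paralog SER33 stood at 0.56, -0.83 and 1.94 and did not pass (adjusted p = 0.361).

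GDS1, IPP1 and SGT2 were also high in all 3. GDS1, whose product is linked to growth on glycerol, stood at 1.49 in SPT3, 1.55 in SPT20 and 2.99 in HFI1. These were the 3 highest of all columns, against 0.53 for the highest other deletion. The difference was 3.07 ± 0.431 (adjusted p = 6.81e-09). IPP1, the cytosolic pyrophosphatase, stood at 1.45, 2.22 and 1.63, with ranks 4, 1 and 2 and a difference of 2.58 ± 0.426 (adjusted p = 9.8e-07). SGT2, a cochaperone that hands over tail-anchored membrane proteins, stood at 0.55, 3.04 and 3.91, with a difference of 3.19 ± 0.406 (adjusted p = 2.7e-10). Here SPT3 lay apart from the other two, just above the others' 95th percentile of 0.43.

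The remaining genes of the 12 largest rises were MET10, YGL039W, HXT2, LAP2, ROT1, TFC3, MTG1 and HSC82, with differences from 2.29 to 3.36. MET10, a subunit of sulfite reductase, stood at 3.34, 2.83 and 3.52, close together in the 3 columns. TFC3, of the RNA polymerase III factor TFIIIC, stood at 1.38, 1.73 and 5.10 and lost its call without HFI1, as did HXT2. In ADA2 and NGG1 all 12 genes lay below the 95th percentile of the others except TFC3, at 1.45 in NGG1 against 1.32.

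**Figure D2:**
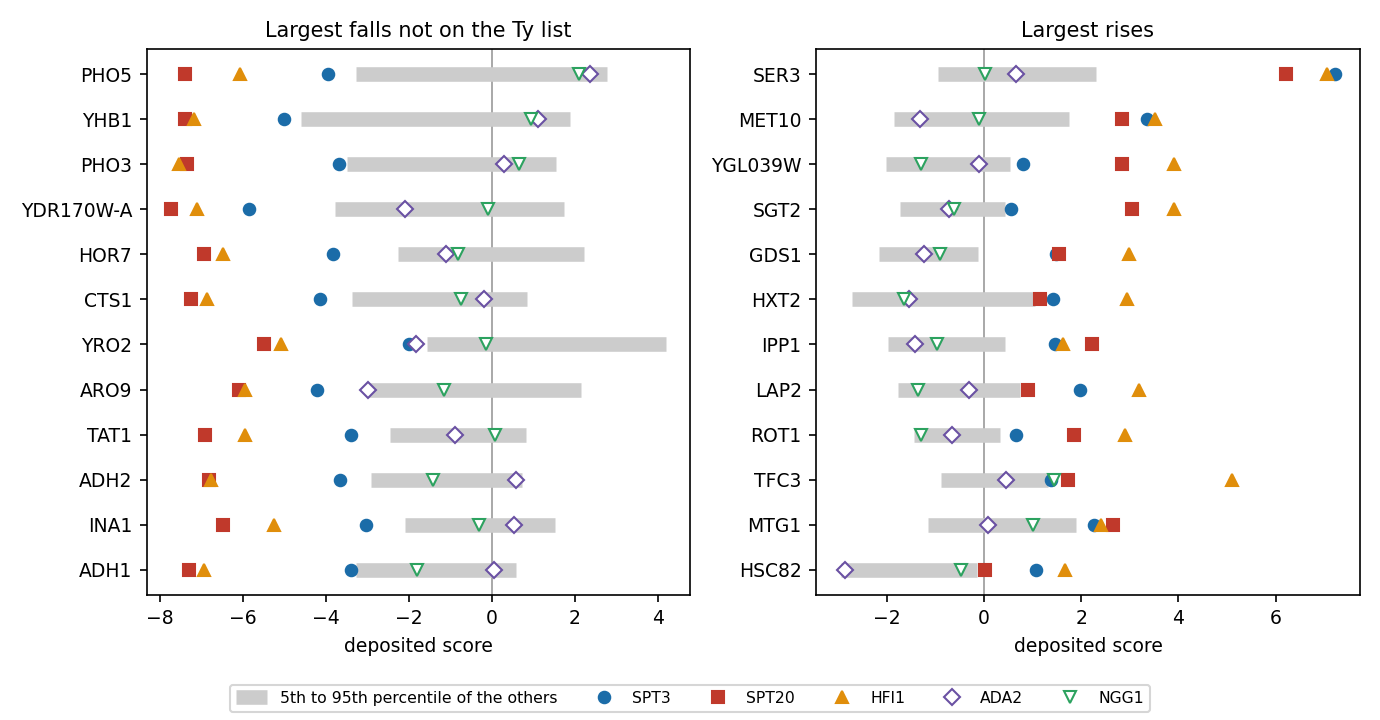
Deposited score (horizontal axis) of the 12 genes with the largest falls that are not on the Ty list and the 12 with the largest rises that were low or high in all 3 core columns. Grey bars span the 5th to 95th percentile of the other deletions, filled symbols are SPT3, SPT20 and HFI1, and open symbols ADA2 and NGG1. The filled symbols lie outside every grey bar, as the rule of choice required, and SPT3 lies nearest to the bar in each of the 12 falls. YDR170W-A, among the falls, is not on the Ty list, but its scores of -5.84, -7.72 and -7.11 are like those of the Ty frames.

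Genes expressed in daughter cells that separate the cell wall between mother and daughter were low. Of 14 tested, 11 fell and none rose, where 12.7% of all genes were lower, and 8 of the 11 also passed without any 1 column. In all 3 columns 7 were low, against 4.22% of all genes. The list's median was -1.86 in SPT3, -2.97 in SPT20 and -3.33 in HFI1, against -0.38 for the others and -0.46 and -0.48 in ADA2 and NGG1. The others' 5th percentile was -2.01, so SPT3 lay inside their range. Low medians were not particular to the core, since the SWI/SNF columns ran from -2.85 to -2.01. CTS1, the chitinase that opens the septum, stood at -4.14, -7.24 and -6.85, with a difference of -5.23 ± 0.795 (adjusted p = 8.21e-08). AMN1, which turns off mitotic exit in daughters, stood at -3.82, -5.75 and -5.15, and EGT2, a cell wall protein of the septum, at -3.63, -4.54 and -3.98. Under quantile normalization 1 of the 14 passed.

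Of 29 cell wall genes, 11 fell and 2 rose, against 12.7% lower and 7.16% higher of all genes. Of the 11, 3 passed without any 1 column and 1 under quantile normalization. GAS1, which elongates wall glucan, stood at -3.00, -5.44 and -4.52, and EXG1, an exoglucanase, at -3.13, -2.88 and -6.11, and both were low in all 3. CWP2, a wall mannoprotein, stood at -2.35, -7.01 and -6.01, with a difference of -4.92 ± 0.935 (adjusted p = 1.57e-05), and SPT3 lay inside the range of the others. TIP1 and GAS5 rose. Cell cycle lists were near the share of all genes, with 2 of 18 G2/M genes and 3 of 25 G1/S genes lower and none higher. The mitotic cyclin gene CLB1 (-3.48, -3.79 and -4.31) and RNR1, the large subunit of ribonucleotide reductase (-3.20, -5.96 and -3.85), were among these.

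Some sugar uptake and fermentation genes fell, in lists to be read against 12.7% lower and 7.16% higher of all genes. Of 15 hexose transporter and sensor genes 6 fell and 1 rose, and 3 of the 6 passed without any 1 column and 2 under quantile normalization. HXT3, a low-affinity transporter, stood at -2.11, -5.33 and -3.74, with a difference of -3.75 ± 0.677 (adjusted p = 6.64e-06). HXT1 stood at -2.64, -3.02 and -4.08 and HXT4 at -1.13, -2.43 and -1.95, and these 3 genes were low in all 3. HXT2, a high-affinity transporter, went the other way, at 1.41, 1.15 and 2.94. Of 18 genes for fermentation and aldehydes, 7 fell and none rose, 3 of the 7 also without any 1 column and 1 under quantile normalization. ADH1, ADH2 and ADH5 were low in all 3. ADH1, the main enzyme that makes ethanol, stood at -3.40, -7.30 and -6.93, with a difference of -4.77 ± 0.721 (adjusted p = 7.43e-08). ADH2, which uses ethanol, stood at -3.67, -6.80 and -6.76 and ADH5 at -3.00, -6.83 and -5.93. These genes are related in sequence, and how far their probes share signal was not tested.

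Of 16 glycolysis genes, 6 fell and 1 rose, against 12.7% lower of all genes. Of the 6, 2 passed without any 1 column, and all 6 lost their call under quantile normalization. The list was lowest in SPT20, at a median of -3.62, against -1.77 in SPT3 and -1.49 in HFI1, and SPT3 and HFI1 lay inside the others' range, which ran from -2.43 to 0.30 between the 5th and 95th percentile. FBA1, aldolase, stood at -2.86, -5.72 and -4.26 and was the only member low in all 3 (adjusted p = 1.49e-05). CDC19, pyruvate kinase, stood at -3.08, -6.60 and -2.88. It lies on chromosome I, and its call was lost when that chromosome was masked in the SPT20 column (adjusted p = 0.151). PGI1 rose, at 0.49, -1.01 and 0.82 against -1.34 for the others' median. Both glycerol-3-phosphatases fell. GPP2 stood at -2.02, -5.33 and -4.08 and GPP1 at -2.28, -5.24 and -4.75, while DAK1, which breaks down dihydroxyacetone, rose, at 0.40, 2.30 and 4.22. Galactose genes are a textbook target of SAGA, and these cells were not stated to have grown in galactose. None of the 7 passed.

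Among genes for amino acids, the shares of all genes to read against were again 12.7% lower and 7.16% higher. Of 19 permease genes, 6 fell and 1 rose, and 3 of the 6 passed without any 1 column and 1 under quantile normalization. TAT1, for valine, leucine and tyrosine, stood at -3.40, -6.92 and -5.94, with a difference of -4.89 ± 0.721 (adjusted p = 3.94e-08). Of 8 genes for aromatic and branched amino acid breakdown, 4 fell and none rose, led by the transaminase ARO9, at -4.22, -6.08 and -5.94. Of these 4, 1 passed without any 1 column and none under quantile normalization, and PDC5 is also among the fermentation genes that fell. The list's median in SPT3, -1.39, lay inside the others' range, whose 5th percentile was -1.43. Of 26 genes for sulfate and methionine 8 rose and 3 fell, and 1 of the 8 passed without any 1 column and 6 under quantile normalization. MET10, described above, was among those that rose, and the sulfur genes CYS4 (-3.73, -5.55 and -4.10) and IRC7 (-4.90, -5.81 and -4.65) fell. Of 43 amino acid synthesis genes 4 rose and 6 fell, near the shares of all genes. ARG4, of arginine synthesis, stood at 0.88, 3.63 and 3.28, and ILV3, of branched amino acid synthesis, at -3.95, -5.93 and -4.26.

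Cytosolic ribosomal protein genes were low in 2 of the 3 columns. Of those tested, 71 (53.8%) fell and none rose, against 12.7% of all genes lower. The list's median was -3.21 in SPT20 and -2.96 in HFI1, below the others' 5th percentile of -1.87, but -0.71 in SPT3, near the others' median of -0.50. Only 2 of the 71 passed without any 1 column, 1 under quantile normalization and 19 with scaled columns, and 6 genes (RPS11B, RPL4B, RPS8B, RPS0A, RPL8A and RPS30B) were low in all 3. RPS8B stood at -2.49 in SPT3, -4.36 in SPT20 and -3.73 in HFI1. Many ribosomal proteins come from near-identical gene pairs, whose signals may be shared. Of 69 ribosome biogenesis genes, 17 fell and none rose, 2 of the 17 also without any 1 column, and all 17 lost their call under quantile normalization. Of 67 mitochondrial ribosomal protein genes 6 fell and 4 rose, below the 12.7% and 7.16% of all genes, and none of these passed without any 1 column.

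Some chaperone genes and genes of the spindle and septins rose, where 7.16% of all genes were higher. Of 22 heat shock chaperone genes 7 rose and none fell, and 2 of the 7 passed without any 1 column. The list's median was -0.88 in SPT3, below the others' median of -0.74, and -0.04 in SPT20 and 0.29 in HFI1. HSC82, the constitutive HSP90, stood at 1.07 in SPT3, 0.01 in SPT20 and 1.67 in HFI1, against -1.32 for the others' median, with a difference of 2.29 ± 0.540 (adjusted p = 0.000637). It was high in all 3 although its score was near 0 in SPT20, since the others' 95th percentile was -0.14. CPR6, a partner of HSP90, stood at 0.39, 1.90 and 2.39 (adjusted p = 5.08e-05). HSP60 (-0.12, 2.23 and 3.35) and HSP82 (-0.91, 0.59 and 1.99) lost their calls without HFI1. Of 28 genes for the spindle, kinetochore and septins, 8 rose and none fell, among them the tropomyosin TPM2 (1.03, 3.89 and 4.64) and the Aurora kinase IPL1 (3.46, 1.53 and 1.52), and 1 of the 8 passed without any 1 column.

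The a-specific and alpha-specific genes separated SPT3 from the other two. Of 6 a-specific genes 5 fell, but the list's median was -5.38 in SPT20, -4.27 in HFI1 and -0.83 in SPT3, and none of the 5 kept its call without any 1 column. MFA1, a pheromone gene, stood at -7.25 in SPT20, -6.87 in HFI1 and -2.09 in SPT3, and BAR1, a protease that degrades alpha factor, at -7.38, -6.14 and -0.78. The alpha-specific genes were low in SPT3 and not in SPT20 or HFI1, with list medians of -3.69, 0.37 and 0.44. None of 4 passed. A low score was not particular to SPT3, since 6 other deletions had a lower list median and the others' 5th percentile was -2.91. The genes of this list are the alpha-cell genes given above as a check, and the mating type of each strain is unstated. Of 28 haploid and pheromone genes 5 fell and 1 rose (KAR5), against 12.7% lower and 7.16% higher of all genes, and the list's median was -0.74 in SPT3, -0.81 in SPT20 and -0.90 in HFI1, below the others' 5th percentile of -0.65. FAR1, which arrests the cell cycle on pheromone, fell (-0.72, -1.94 and -2.04, adjusted p = 6.89e-06), as did FUS3, the kinase that activates it (-2.45, -2.45 and -1.91, adjusted p = 0.000498).

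Of 18 SAGA subunit genes tested, with each deleted gene's own value left out in its own column, none passed, and differences ran from -0.92 to 0.77. None of 8 core histone genes and none of 22 nitrogen catabolite genes passed. The share of all genes that passed, to read the counts of this paragraph against, was 19.9%, with 12.7% lower and 7.16% higher. The histone list stood at a median of -2.81 in SPT20, -2.49 in HFI1 and 0.54 in SPT3. Of 25 Mediator genes 1 rose, MED1.

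**Figure D3:**
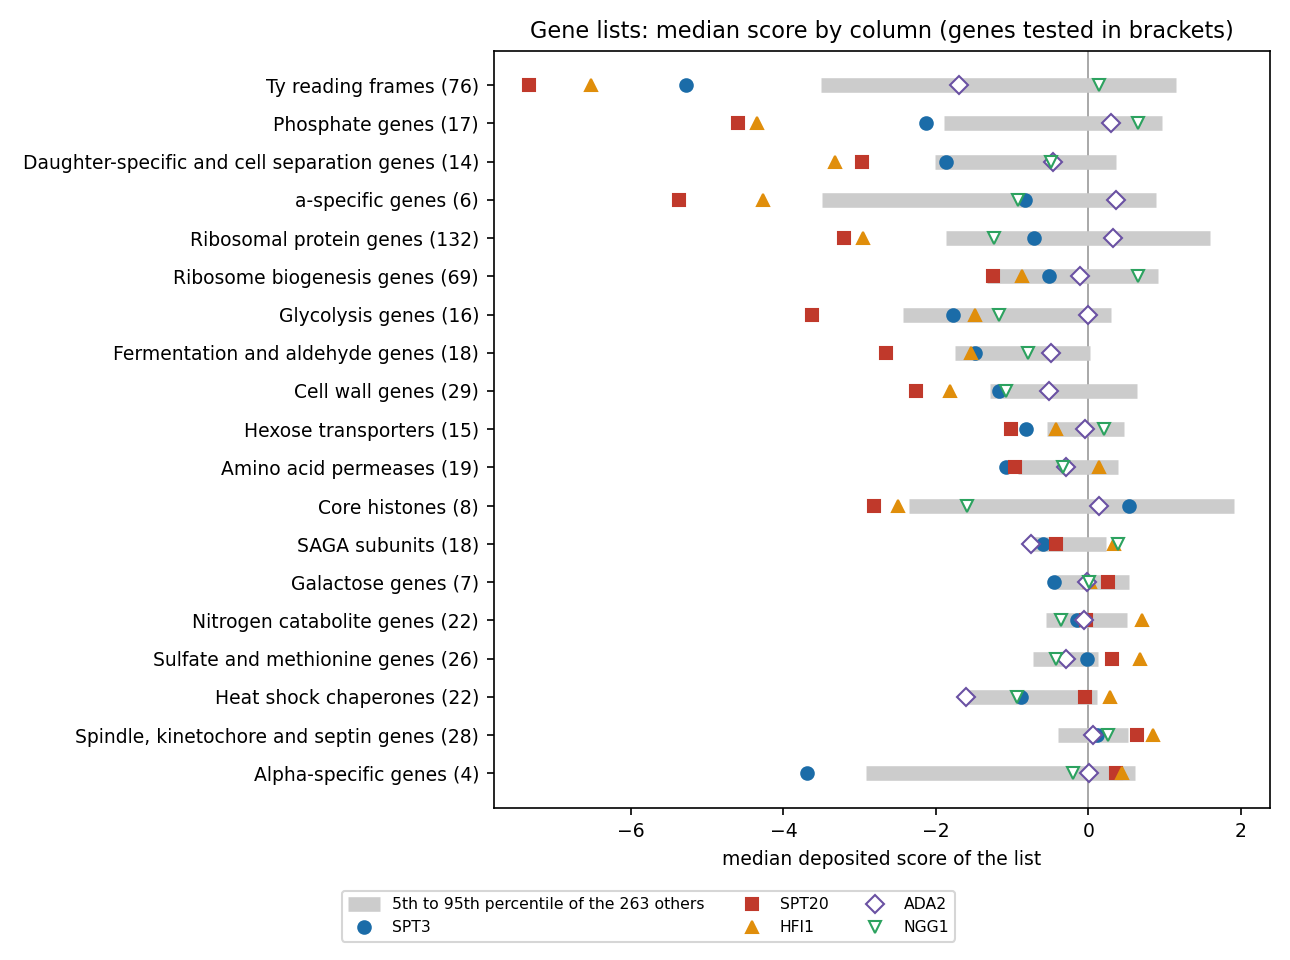
Median deposited score (horizontal axis) of 19 gene lists in the SPT3, SPT20 and HFI1 columns (filled symbols) and in ADA2 and NGG1 (open symbols), with the 5th to 95th percentile of the same median over the other deletions as a grey bar. Ty reading frames and phosphate genes lie below the bar in all 3 core columns, ribosomal protein genes in SPT20 and HFI1, and alpha-specific genes in SPT3.

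The 3 columns differed in strength and in a limited set of genes. SPT3 lay more than 2 above both other columns in 2.74% of genes and more than 2 below both in 72 genes. For SPT20 these were 7 and 59 genes, and HFI1 lay above both in 3.19% of genes and below both in 39. CWP1, a wall mannoprotein, stood at 0.52 in SPT3, -7.46 in SPT20 and -5.49 in HFI1. FIT2, a wall protein that helps to hold iron siderophores, stood at 0.20, 6.76 and 5.24, and FIT3 at 1.56, 6.50 and 6.64. APE1, a vacuolar aminopeptidase, stood at -1.70, 2.90 and 2.70. These 4 genes were chosen by the distance of SPT3 from the mean of the other 2, so SPT3 stands apart by that choice. In FIT3 the SPT3 score was also above 0, but lower.

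The genes lowest in SPT20 relative to the mean of the other two included CYS3 (0.64, -4.42 and -0.29) and ERV46 (-1.08, -4.34 and 0.98), both on chromosome I. Relative to the other two, HFI1 was highest in YHL049C (-2.24, -2.57 and 2.78), YLR464W, LSC2, a subunit of succinyl-CoA ligase (-2.55, -1.13 and 2.67), and YHR219W. It was lowest in ATG9, which supplies membrane for autophagy (0.61, 0.52 and -3.21), YGP1, DDR48 (-2.97, -2.13 and -6.18) and CHS1, a chitin synthase (2.30, -0.79 and -2.87). Each of these values comes from 1 column and has no replicate check.

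The columns of the acetyltransferase module were set against the core. Between the core and the ADA2 and NGG1 columns 2.87% of 5612 genes differed, 30 higher (0.535%) and 2.33% of genes lower in the core. ADA2 and NGG1 against the others gave 1 gene (0.0178%) in limma, with 53 at an unadjusted p under 0.05. That gene was HXT9, at 0.96 in ADA2 and 5.78 in NGG1, so its call rested mostly on NGG1. Of the genes lower in the core, 51 were Ty reading frames and 11 phosphate genes. Core minus ADA2 and NGG1 was -8.04 ± 1.62 for PHO5 (adjusted p = 0.00103), -8.21 ± 1.83 for PHO11 (adjusted p = 0.00354) and 6.49 ± 1.15 for SER3 (adjusted p = 0.000245). The count depended on single columns: it was 13 without SPT20, 32 without HFI1, 271 without SPT3, 24 without ADA2 and 2 without NGG1. It was 10 under quantile normalization and 20 with each column scaled by its spread. Of the genes low in all 3 outside the Ty frames, which are 3.06% of genes, 4 lay below the same limit in ADA2 and 4 in NGG1, and the median of the other deletions was also 4.

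The columns most like the core were those of the core itself and of SWI/SNF. With each gene centred on its median, Pearson's r across genes was 0.75 for SPT20 and HFI1, 0.67 for SPT3 and SPT20 and 0.52 for SPT3 and HFI1. The median over all 35778 pairs of columns was -0.01 and the 97.5th percentile 0.46. SNF6 (0.64), SNF5 (0.61) and SNF2 (0.59) followed SPT20 among the columns most like SPT3. SNF2 and SNF6 (both 0.74) followed HFI1 for SPT20, and SNF5 (0.58) followed SPT20 for HFI1. With ADA2 and NGG1 r lay between -0.06 and 0.09, and between ADA2 and NGG1 it was -0.25. SPT3 was nearer to each SWI/SNF column than to HFI1, and HFI1 with SNF6 and SWI3 (both 0.44) lay below that 97.5th percentile. Without Ty reading frames the 3 core pairs were at 0.70, 0.59 and 0.42. The SWI/SNF columns then lay at 0.43 to 0.56 with SPT3, 0.51 to 0.69 with SPT20 and 0.33 to 0.49 with HFI1. Genes share an array and are not independent, so these are descriptions.

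The genes low in all 3 were often low in SWI/SNF columns too. Of those outside the Ty frames, 75.6% lay below the same limit in SNF6, 69.8% in SNF2, 64% in SNF5 and 60.5% in SWI3. These columns are broad, with 20.4% to 24.4% of all genes below it. They ranked 1st to 4th of the other deletions in this count, and TUP1 followed with 91 genes. Of the 43 genes high in all 3, 14 to 17 were high in each SWI/SNF column, against 8.1% to 12.6% of all genes there. Here SIN4 ranked 1st of the other deletions, with 19 genes, and SFP1 (17) and CST6 (16) stood among the SWI/SNF columns.

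**Figure D4:**
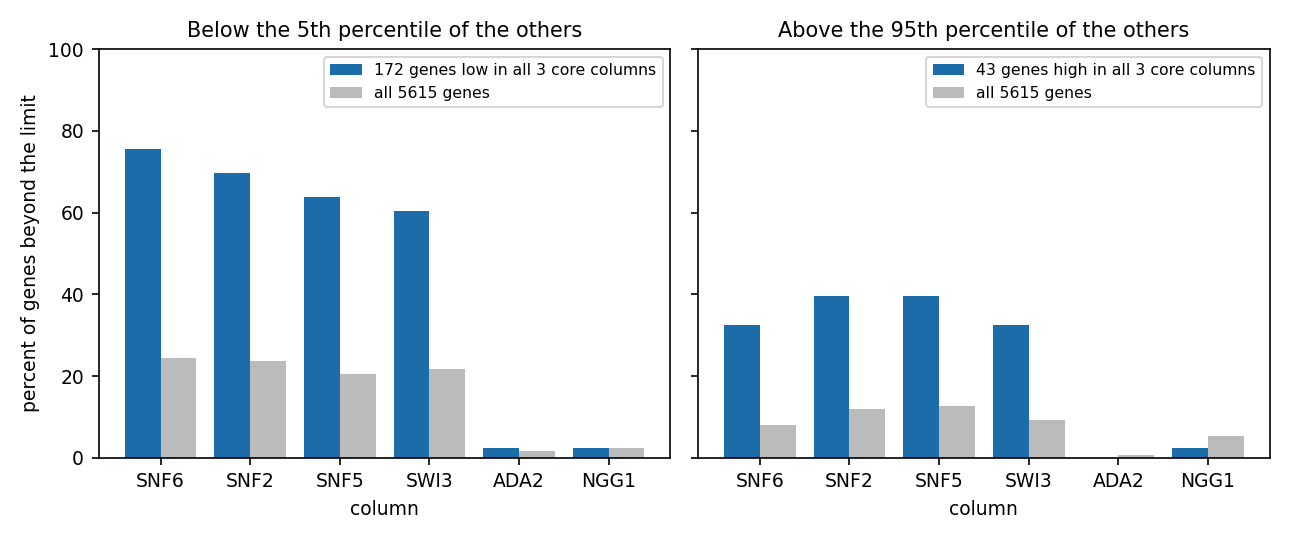
Percent of genes (vertical axis) that lay below the 5th or above the 95th percentile of the other deletions in 6 columns, for genes low in all 3 core columns outside the Ty frames or high in all 3 (43), beside all 5615 genes in grey. For the low genes the blue bars run from 60.5% to 75.6% in the SWI/SNF columns and stand at 2.33% in ADA2 and in NGG1.

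Because the SWI/SNF columns were so like the core, the 2 groups were set against each other, a comparison chosen after the data were seen. SNF2, SNF5, SNF6 and SWI3 were taken as 1 group of 4 columns. In SWI3 the genes of chromosome III lay 1.15 above the rest of that column. In SNF6 those of chromosome VI lay 0.54 below. These chromosomes were not masked, and their part in the differences was not tested. Of 5615 genes 3.99% passed, 3.1% higher and 50 genes (0.89%) lower in the core. The SD over tested genes was 1.60 to 1.77 in the SWI/SNF columns. With scaled columns 17 genes passed, 11 higher and 6 lower, and under quantile normalization 11, 7 higher and 4 lower. Without HFI1 the count was 50, 19 higher and 31 lower, and without SNF6 it was 120. No Ty reading frame, phosphate gene, hexose transporter or ribosomal protein gene passed in either direction.

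TIP1, a wall mannoprotein induced by cold, showed the largest difference. It stood at -0.13 in SPT3, 3.28 in SPT20 and 2.73 in HFI1, but at -5.46, -6.55, -6.90 and -6.80 in SWI3, SNF5, SNF2 and SNF6. The difference was 8.39 ± 1.21 (adjusted p = 4.83e-08, limma). GPP2 went the other way, at -2.02, -5.33 and -4.08 in the core and 5.59, 3.26, 2.63 and 3.40 in SWI/SNF, with a difference of -7.53 ± 0.864 (adjusted p = 1.67e-12). GPP1 differed by -4.89 and PIL1, a protein of eisosomes, by -4.46. Also lower in the core were the mitochondrial aldehyde dehydrogenase ALD4 (-5.80), the peroxiredoxin AHP1 (-5.24) and MET2, of methionine synthesis (-4.96). HSP60 (4.43), the elongation factor gene TEF2 (3.98), CUP1-2 (3.96), SSE1 (3.83) and PGI1 (3.72) were higher. Of 22 chaperone genes 6 were higher in the core, as were 4 of 33 proteasome genes, against 3.1% of all genes. Of 26 sulfate and methionine genes 4 were lower, against 0.89% of all genes. Over all genes, 19 were higher and 31 lower without HFI1, and 7 higher and 4 lower under quantile normalization. How many of these list members kept their call in either setting was not tested. SER3 was not called different, with a difference of 2.44 ± 0.878 (adjusted p = 0.0999), and stood at 0.26 in SNF6 against 5.44 to 6.03 in the other 3 SWI/SNF columns.

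**Figure D5:**
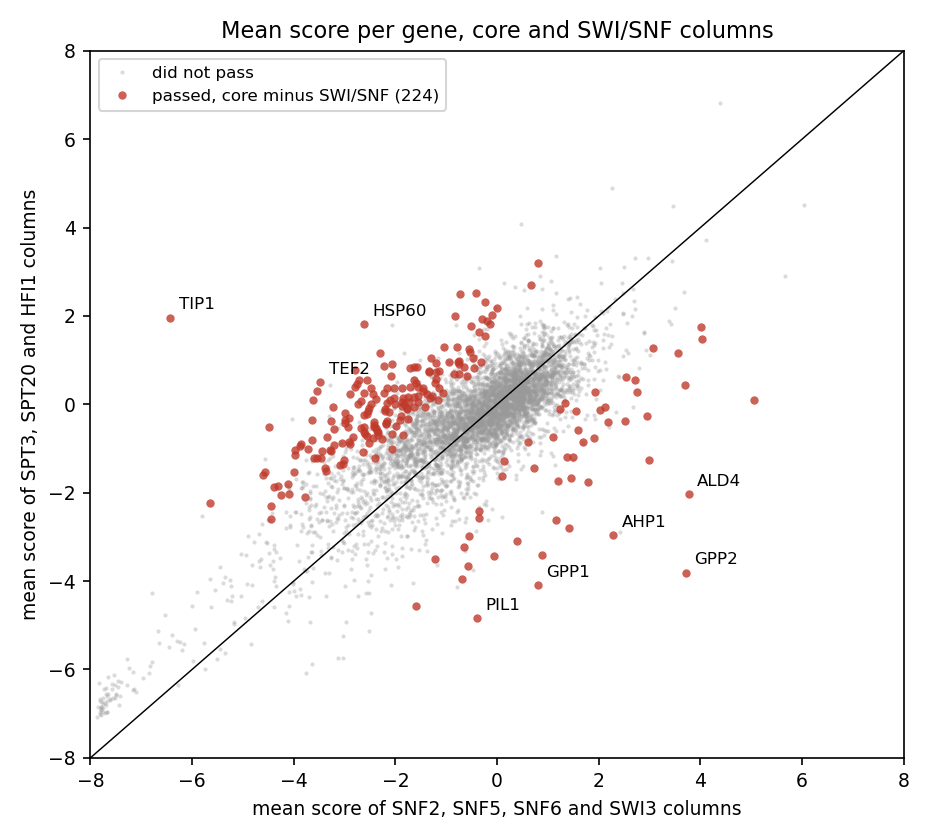
Mean deposited score of each gene in the 4 SWI/SNF columns (horizontal axis) and in the 3 core columns (vertical axis), with the line of equal score. Red points are the genes that passed, grey points the rest. TIP1 lies at -6.43 and 1.96, and GPP2 at 3.72 and -3.81.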

How the data were processed

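The authors' deposited table gave 1 score per feature and deletion, and neither it nor the labels state its scale, centring, normalization or log base; the direction, deletion (Cy5) over wild type (Cy3), was taken from the labels. Scores ran from -8.35 to 8.05 and 1.25% were missing. The planned tests had assumed deposited values of another kind, and limma was kept on the signed score. Named genes (reference gene table of assembly R64) with a value in at least 80% of columns were fitted over all columns by limma 3.58.1 in R 4.3.3, with 1 mean each for the 3 core columns, ADA2 and NGG1, and the other deletions, eBayes, and Benjamini-Hochberg adjustment over all genes tested, threshold 0.05. Each deletion's own gene was left out in that column. The script was tested on simulated data. Precision is limited by how few arrays there are, and whether cultures were separate is not stated, so p-values measure the spread between columns, which may be technical. Named genes were the 12 largest rises and falls low or high in all 3, up to 4 that passed per list, the 6 largest differences each way between the core and ADA2 and NGG1, the 4 most distinct genes each way per column and the 5 deleted genes. Because Ty frames filled most of the falls, the 12 largest not on the Ty list were added after their values were seen; YDR170W-A, which scored like a Ty frame, is not on that list and counts as outside it. The members and the 51 lists were chosen with earlier results of these data known. Alternatives were quantile normalization, scaling by median and MAD, an exact Mann-Whitney test, complete genes, all features, other comparison groups and single columns left out. Columns called low in alpha-cell markers scored under -2 in at least 2 of STE3, MF(ALPHA)1, MF(ALPHA)2 and MET17. MET17 is not on the alpha-specific list. The rule marked SPT3 and 30 other deletions.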

Additional observations from a re-analysis of the deposited data

Results flagged for a closer look

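The core and the ADA2 and NGG1 columns differed, by limma's test of the difference itself, in 2.87% of the genes tested. The largest differences upward in the core were those of SER3 (6.49, adjusted p = 0.000245), NCE103, a carbonic anhydrase (5.40, adjusted p = 0.047), AKR2 (5.34, adjusted p = 0.0485), FRE7 (4.14, adjusted p = 0.0263), ARG4 (3.99, adjusted p = 0.033) and RDL1 (3.99, adjusted p = 0.0453). NCE103 stood at 2.41, 6.41 and 4.68 in SPT3, SPT20 and HFI1 and at -1.25 and -0.55 in ADA2 and NGG1. The largest differences downward were those of PHO11 (-8.21, adjusted p = 0.00354), PHO5 (-8.04, adjusted p = 0.00103), PHO89 (-8.03, adjusted p = 0.019), PHO12 (-7.79, adjusted p = 0.018), YHB1 (-7.55, adjusted p = 0.0038) and the Ty reading frame YML045W-A (-6.80, adjusted p = 0.0206).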

How the results depend on the processing

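No paired analysis was possible because each strain had 1 column and the replicate numbers only follow the order of the accessions. Core minus other deletions called 1115 genes, 240 under quantile normalization, 458 with columns scaled by MAD and 418 to 1114 without 1 column of the core or of ADA2 and NGG1. Core minus ADA2 and NGG1 called 2.87% of genes, 0.178% under quantile normalization, 0.356% with scaled columns, 4.74% without chromatin and Mediator strains among the others, 4.69% without all columns low in alpha-cell markers (SPT3 among them) and 0.0357% to 4.83% without 1 column. ADA2 and NGG1 minus others called 1, HXT9, whose call rested mostly on NGG1. The count was 2 with scaled columns and 0 under quantile normalization, by the exact Mann-Whitney test and in genes complete in all columns. It was also 0 over all features, without columns low in alpha-cell markers (the others alone, or all) and without columns written with 6 digits. Without ADA2 or NGG1 this group held 1 column, so that count is left out. Ty reading frames that fell numbered 72, and 20 under quantile normalization. Genes outside the central 90% in all 3 columns made up 4.99%, with 9.78% for the central 80%, 0.338% for the central 98%, 1.64% under quantile normalization and 3.08% with scaled columns. Core minus SWI/SNF called 3.99% of genes, and 11 genes under quantile normalization, 17 with scaled columns, 50 (without HFI1) to 303 without 1 core column and 120 without SNF6. BAT2 turned from -2.0 to 0.12 under quantile normalization and ATG9, at -1.10, ran from -1.76 to 0.15 without 1 core column, above 0 without HFI1. The cause of these moves was not tested. Of 170 named genes that passed, 57 kept their call under quantile normalization, 110 with scaled columns and 99 without SPT20. An exact test of 3 columns against 2 cannot go below 0.2. The planned look at promoter sequence was not run. The alternatives without SPT3 and all columns low in alpha-cell markers, with chromosome I masked in SPT20, and the SWI/SNF comparison were chosen after seeing the data.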
